A study of Mus musculus with 4 samples.

Results

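Predicted genes carry a symbol made of Gm and a number and are gene models that were annotated from sequence evidence and have no name drawn from a known function. Those described here are the autosomal ones (chromosomes 1 to 19) that were abundant in testis RNA. They are the listed genes with a transcript whose mean reached 5 FPKM in wild type or in the mutant, where FPKM is the fragment count scaled to transcript length and library total. The rule gave 277 genes with 304 transcripts, among 7453 genes and 11304 transcripts in all. The table lists 666 predicted genes, 511 of them on autosomes. The 277 genes carry 276 symbols, since Gm13301 names 2 genes, and 12 further listed transcripts of the same genes stayed under 5 FPKM. Just inside the threshold lay Gm12203 at 5.07 FPKM and Gm12715 at 5.09 FPKM, and just outside it Gm12394, Gm4349 and Gm9252, each at 4.995 FPKM.

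The study sequenced RNA from the left testis of C57BL/6 mice at postnatal day 56, with 2 libraries from wild-type mice (WT) and 2 from mice titled Ppp2ca-cKO, whose genotype is given as Ppp2ca-/-. Ppp2ca encodes a catalytic subunit of the serine/threonine phosphatase PP2A, and the series asks about its part in the meiotic entry of male germ cells. The labels name neither the Cre driver nor the cells in which the gene was deleted. No listed transcript belonged to Ppp2ca (0 transcripts), so the target was not analysed here and the genotypes were taken from the labels. Every listed transcript had been called different between the genotypes by the authors (adjusted p up to 0.05, log2 fold change of 1 or more either way). The genes were therefore chosen on the contrast described below, and their differences between WT and cKO are a description with no test of their own.

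Many predicted genes are pseudogenes. A processed pseudogene, or retrocopy, is a copy of a spliced messenger RNA that was inserted back into the genome, so it usually lacks introns and lies far from its source gene. An unprocessed pseudogene arises by duplication of genomic DNA. The testis is known for transcribing many young genes, retrocopies and multicopy families, above all in meiotic and postmeiotic germ cells.

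Most of the 277 genes were of these kinds. GENCODE vM21 annotates 128 as protein coding, 110 as processed and 10 as transcribed processed pseudogenes, 18 as unprocessed and 8 as transcribed unprocessed pseudogenes, 1 as a transcribed unitary pseudogene and 1 as an antisense RNA, and does not hold the last. A single exon made up 46.9% of them, against 7.98% of all listed genes and 43.6% of the 234 listed autosomal predicted genes under 5 FPKM. Their median transcript was 1084 bases long, against 2209 over all listed genes and 1569.5 over those 234. The most abundant member transcript of each gene, its lead transcript, was compared with all GENCODE transcripts of other genes. A near copy had at least 90% identity over at least 50% of the member. Of the 277, 68 had none, 99 had 1 to 9, 107 had 10 or more, and 3 had no reference sequence. Reads from near copies can be divided among genes by the counting, so values of such members are uncertain as values of 1 locus.

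The extent of this is visible in the sequences. The first set shows 4 short processed pseudogenes of a dispersed family that holds 37 of the members and 4 of the 7 most abundant ones by FPKM. Gm49051 (chr14:82892837-82893106, plus strand) is the reference, and capitals mark the bases at which Gm49511 (chr16:15750923-15751192, plus strand), Gm47605 (chr13:25035059-25035328, plus strand) and Gm48494 (chr13:16390591-16390854, plus strand) differ from it over the aligned bases. The sequences are whole GENCODE vM21 transcripts on GRCm38.
Gm49051: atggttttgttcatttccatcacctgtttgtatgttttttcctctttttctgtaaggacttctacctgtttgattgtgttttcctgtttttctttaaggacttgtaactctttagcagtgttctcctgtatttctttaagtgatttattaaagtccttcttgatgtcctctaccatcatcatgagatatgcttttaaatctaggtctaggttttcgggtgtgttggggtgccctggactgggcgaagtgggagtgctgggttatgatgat
Gm49511: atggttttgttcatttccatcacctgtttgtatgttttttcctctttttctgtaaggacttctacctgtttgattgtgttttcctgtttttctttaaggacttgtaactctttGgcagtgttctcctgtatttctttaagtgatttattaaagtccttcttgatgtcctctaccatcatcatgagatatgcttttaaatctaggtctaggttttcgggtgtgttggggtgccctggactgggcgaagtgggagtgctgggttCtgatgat
Gm47605: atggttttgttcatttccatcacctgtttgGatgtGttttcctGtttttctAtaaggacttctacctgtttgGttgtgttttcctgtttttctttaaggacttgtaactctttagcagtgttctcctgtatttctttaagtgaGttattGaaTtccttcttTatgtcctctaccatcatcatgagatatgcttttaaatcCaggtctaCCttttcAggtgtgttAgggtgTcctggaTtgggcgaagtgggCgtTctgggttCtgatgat
Gm48494: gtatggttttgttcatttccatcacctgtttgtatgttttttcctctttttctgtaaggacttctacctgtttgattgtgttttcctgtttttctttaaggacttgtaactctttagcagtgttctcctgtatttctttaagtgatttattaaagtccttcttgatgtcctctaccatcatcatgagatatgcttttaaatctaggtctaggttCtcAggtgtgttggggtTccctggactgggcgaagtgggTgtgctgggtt
Gm49511 differed from Gm49051 at 2 bases (99.3% identity), Gm48494 at 4 (98.5%) and Gm47605 at 19 (93.0%), although they lie on 3 different chromosomes.

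The second set belongs to the 3 members that are copies of Rrs1, a regulator of ribosome biogenesis, and that were higher in cKO. It shows coding bases 301 to 390 of Rrs1 (chromosome 1, GRCm38, plus strand) and the stretches of the 3 copies on chromosome 5 that align to them, with capitals at the bases that differ from Rrs1.
Rrs1: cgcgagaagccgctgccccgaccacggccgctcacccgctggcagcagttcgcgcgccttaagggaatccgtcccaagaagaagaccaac
Gm5067: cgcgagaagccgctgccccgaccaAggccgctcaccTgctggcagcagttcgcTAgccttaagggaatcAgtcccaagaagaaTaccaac
Gm21168: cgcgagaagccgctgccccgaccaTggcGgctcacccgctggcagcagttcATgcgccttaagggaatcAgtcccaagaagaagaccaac
Gm6089: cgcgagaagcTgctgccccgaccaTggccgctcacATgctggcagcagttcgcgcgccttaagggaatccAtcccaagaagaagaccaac
Over these 90 bases Gm5067 differed from Rrs1 at 6 and Gm21168 and Gm6089 at 5 each, so that fragments can tell these copies from Rrs1 only where they cover such a base.

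In the comparison of the genotypes, the abundant predicted genes were mostly lower in cKO. Of the 277 lead transcripts 267 were lower and 10 higher, with a median log2 fold change of -2.38 and an interquartile range of -3.21 to -1.61. Over all listed genes the median was -1.44, with 4743 lower and 2710 higher. By edgeR's quasi-likelihood test (an adjusted p under 0.05 over 64840 transcripts, the number inferred to have been tested by the authors) 157 were called lower and 3 higher. Of the lead transcripts of all listed genes 39.8% were called lower and 11.2% higher. The authors' own thresholds had kept 17.4% of that inferred number. Without WT replicate 1 or without WT replicate 2 edgeR called 0 of them. Before adjustment 223 and 234 had p under 0.05, as did all 277 with every library, which follows from how the genes were selected and is no support for the calls. On all 4 libraries DESeq2 called 264 lower and 10 higher. It called 7083 of the 7119 lead transcripts of all listed genes (4524 lower and 2559 higher). Its counts therefore follow from the selected list and are no support for these genes. The WT and cKO values did not overlap in any of the 277, nor in 7452 of all 7453 listed genes, so this follows from the choice of the genes. Counts and medians moved with the scaling. The values use the authors' size factors, while scaling by TMM over the listed transcripts shifts the median over all listed genes from -1.44 to 0.09. Of the predicted genes TMM gave 36 called lower, 10 called higher and a median of -0.88. Over all listed genes it called 834 lead transcripts lower and 2563 higher. Scaling by library totals gave medians of -0.90 over all listed genes and -1.85 over the predicted ones. Under TMM 219 of 276 tested were lower and 57 higher, and the 10 that were higher kept that direction.

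**Figure D1:**
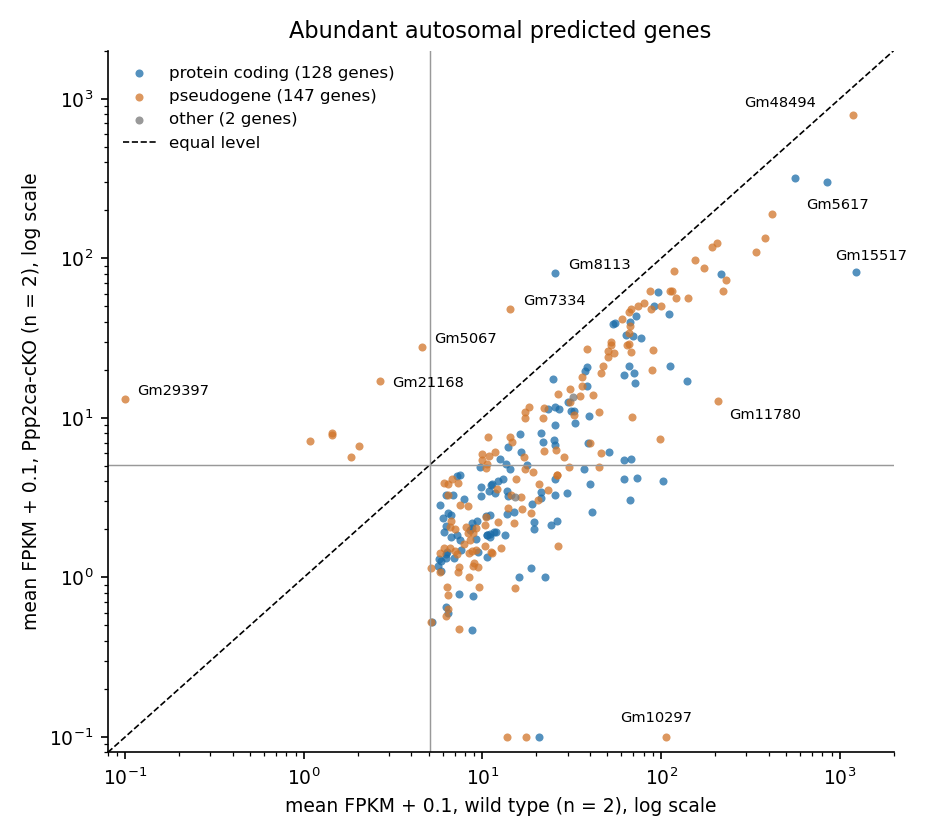
Mean FPKM plus 0.1 of each gene's lead transcript in wild type (x axis) and Ppp2ca-cKO (y axis), both on log scales, for 277 genes (n = 2 libraries per genotype). Grey lines mark 5 FPKM and the dashed line equal levels. FPKM is scaled by library total, and on it 267 genes lie below the line and 10 above it.

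Member transcripts took 1.46% and 1.24% of all reads in WT libraries and 0.555% and 0.467% in cKO libraries, out of library totals of 17612378 to 19834934 reads. Beside this, 17 of 17 listed elongating spermatid markers and 15 of 15 round spermatid markers were lower in cKO, with medians of -4.07 and -3.07, and 11 of 11 listed markers of pachytene and later spermatocytes were lower, with a median of -1.62. Under TMM these medians were -2.60, -1.57 and -0.13, with 3 round spermatid and 4 spermatocyte markers higher. All 16 listed Sertoli cell markers were higher under each scaling (median 1.33, and 2.84 under TMM), as were 8 of 9 Leydig cell markers (1.83, and 3.31 under TMM) and 6 of 6 leukocyte markers (1.84, and 3.33 under TMM). The ninth Leydig marker, the steroid dehydrogenase gene Hsd17b3, had 133 and 3.28 reads in WT and 0 in both cKO libraries, and did not pass the filter on low counts. Of 10 listed spermatogonial markers 8 were higher and 2 lower, with a median of 1.27 (2.77 under TMM). The listed markers were all 17 chosen for elongating spermatids, 15 of 16 for round spermatids and 11 of 15 for spermatocytes. They were 10 of 15 for spermatogonia, 16 of 20 for Sertoli cells, 9 of 12 for Leydig cells and 6 of 14 for leukocytes. The other markers had no listed transcript and do not enter these counts. The summed elongating spermatid markers stood at 335758 and 370308 normalized counts in WT and at 18892 and 36592 in cKO. In the cKO none of the listed germ cell markers was at 0. In whole testis RNA, fewer cells of a type and less RNA per cell cannot be told apart, and the part of cell composition in the values of the predicted genes was not tested.

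The most abundant member by FPKM was Gm15517, a protein-coding model of 3 exons and 251 bases on chromosome 7 (44261447 to 44261891, GRCm38) with no near copy. Its normalized counts were 916 and 1238 in WT and 29.1 and 56.8 in cKO, with a log2 fold change of -4.64 ± 0.45 (SE) and an adjusted p of 0.0155 by edgeR. A second transcript of 212 bases stood at 18.3 and 13.2 in WT and was at 0 in both cKO libraries. Gm5617, a single-exon protein-coding model of 531 bases on chromosome 9, stood at 4026 and 7683 in WT and at 1143 and 1653 in cKO (-2.07 ± 0.40, adjusted p = 0.0399). Gm11780, a processed pseudogene of 516 bases on chromosome 4 with no near copy, stood at 1148 and 1591 against 31.5 and 80.8 (-4.60 ± 0.54, adjusted p = 0.0183). In each of these 3 genes replicate 2 was the higher library in both genotypes. Both cKO libraries lay below both WT libraries, which follows from the choice of the genes. Under TMM the log2 fold change was -3.16 for Gm15517 and -3.13 for Gm11780, but -0.57 for Gm5617.

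**Figure D2:**
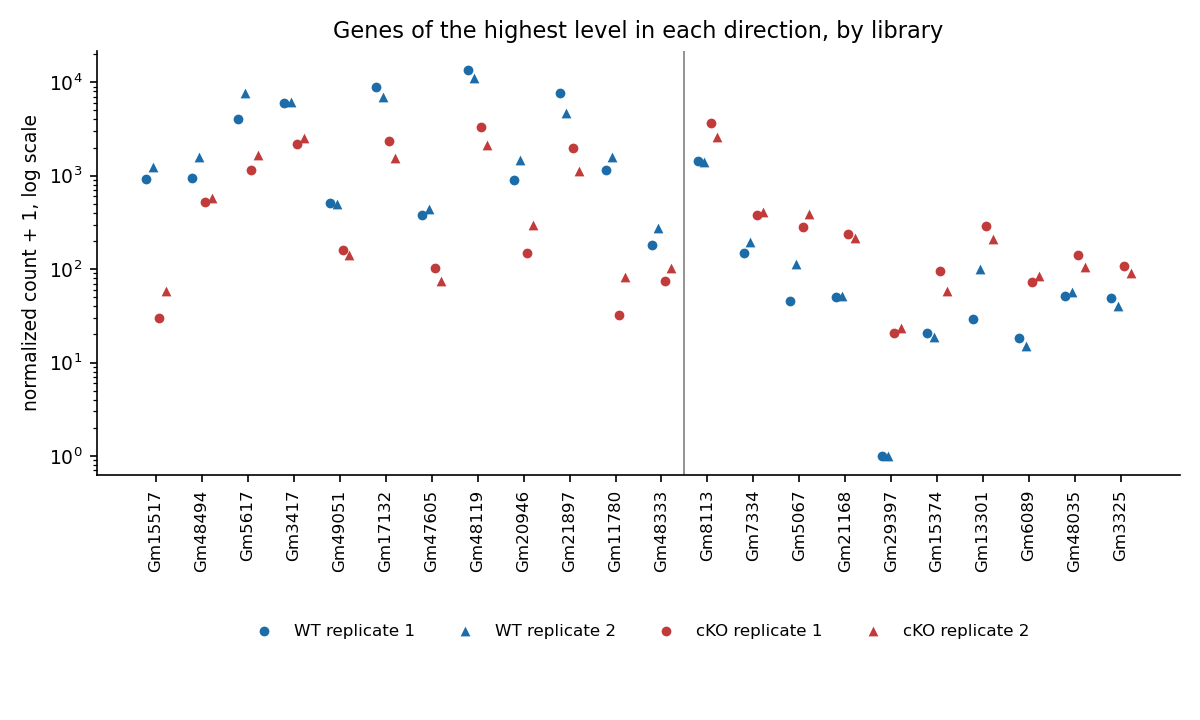
Normalized count plus 1 (log scale) in each of the 4 libraries for the 12 genes lower and the 10 genes higher in cKO with the highest FPKM in their higher genotype. Blue points are WT and red points cKO libraries, with circles for replicate 1 and triangles for replicate 2. Gm29397 is at 0 in both WT libraries, and the colours do not overlap in any gene, which follows from the choice of the genes.

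Gm3417 is a protein-coding model on chromosome 17 whose transcript is 98.8% identical over 93.1% of its length to Tcte3, a Tctex2-type dynein light chain gene. Gm3417 stood at 6037 and 6184 in WT and at 2180.3 and 2564 in cKO (-1.37 ± 0.23, adjusted p = 0.0294), and the listed Tcte3 transcript at 18603 and 13556 against 8787 and 5704 (-1.15 ± 0.32). Under TMM Gm3417 turned to 0.13. Its 2 libraries within a genotype lay closer together than those of Tcte3, in which replicate 1 was the higher in both genotypes.

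Among protein-coding models with no near copy, which are the least ambiguous members, all 43 were lower. Their median log2 fold change was -2.98 (-1.50 under TMM, with 39 lower and 4 higher), and 31 were called (15 under TMM). Over all listed genes 39.8% of the lead transcripts were called lower, and 834 lead transcripts under TMM. The 43 genes were chosen on this contrast, so their direction and calls are a description. The examples that follow in this paragraph were chosen after their values were seen. Gm128, on chromosome 3, stood at 3828 and 4799 in WT and at 1111 and 1303 in cKO (-1.84 ± 0.25). Gm39566 stood at 5992 and 5171 against 249.6 and 373 (-4.16 ± 0.32), and Gm136 at 2041 and 1186 against 29.9 and 69.6 (-5.02 ± 0.56). The cKO libraries of all 3 lay below the WT libraries, which follows from the choice of the genes. The WT libraries of Gm136 differed more than those of the other genes. Gm8251 is not of this class, since without a reference sequence it was not compared with other genes. This protein-coding model, with a transcript of 20036 bases, had the highest normalized counts of all members, although its FPKM was 29.6 in WT and 3.26 in cKO. Its normalized counts were 16067 and 9898 in WT and 963 and 1035 in cKO (-3.70 ± 0.33).

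**Figure D3:**
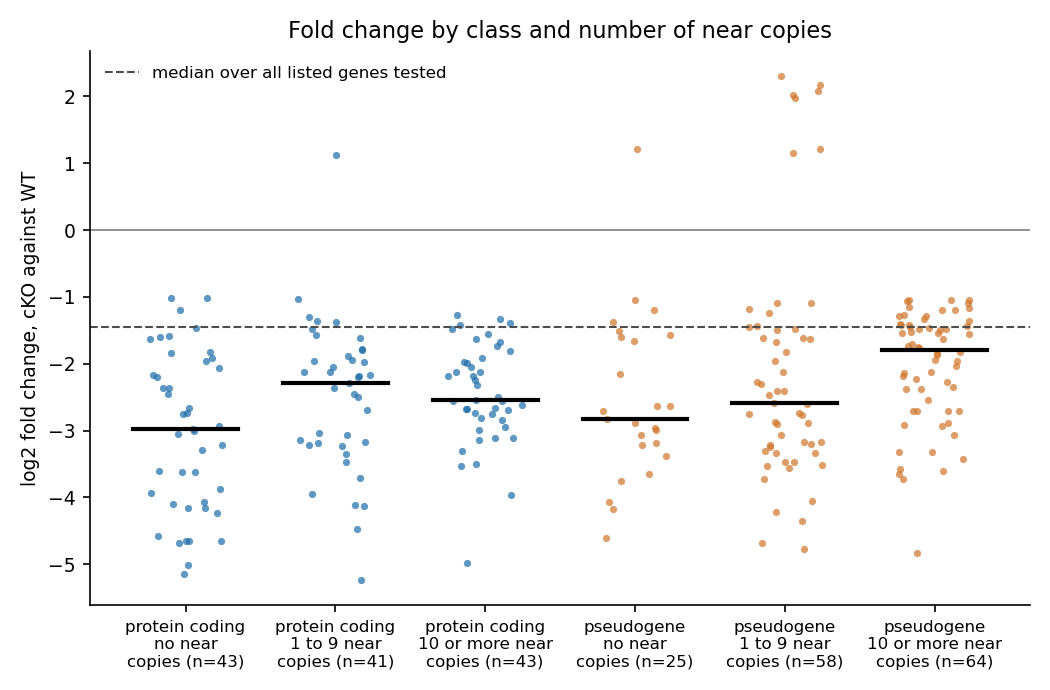
Log2 fold change of cKO against WT for lead transcripts, by class and number of near copies. Bars are medians, and the dashed line is the median over all listed genes tested. The 5 genes at 0 in a genotype are left out of the points, and the 3 genes with no reference sequence are not drawn. Medians run from -2.98 in protein-coding genes with no near copy to -1.79 in pseudogenes with 10 or more, and under TMM they run from -1.50 to -0.27.

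The 128 protein-coding genes had a median of -2.56 and the 147 pseudogenes one of -2.22. Among pseudogenes the median was -2.82 with no near copy (25 genes), -2.59 with 1 to 9 (58 genes) and -1.79 with 10 or more (64 genes). Among protein-coding genes it was -2.98, -2.28 and -2.54. Differences between these classes were not tested, since all of these genes were chosen by the same contrast. The genes of a class are also not separate cases where near copies share reads. A family of 37 genes, described below, holds 32 of the 147 pseudogenes. It had a median of 59 near copies and a median log2 fold change of -1.50. All but 1 of the 10 genes higher in cKO were in the class with 1 to 9 near copies.

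Near copies tied 147 of the members into 26 families of 2 or more, and 130 stood alone. In 24 families every member was lower, in 1 every member was higher, and 1 was mixed, and 20 families lay on 1 chromosome each. Under TMM 16 families were lower in every member, 2 higher in every member and 8 of both directions, among them 5 of the 10 families of 5 or more genes. The largest family holds 37 genes on 10 chromosomes, of which 32 are pseudogenes, with a median of 59 near copies in other genes. Its summed normalized counts were 109490.0 and 78099 in WT and 39757 and 26312 in cKO. Its median log2 fold change was -1.50 and 11 members were called lower (4 with library totals), whereas under TMM the median was 0.02, with 17 lower and 19 higher of 36 tested and 0 called. Its members made up 36.5% and 28.5% of the reads of all member lead transcripts in WT and 48.9% and 36.9% in cKO.

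Within this family Gm48494, of 264 bases, stood at 934 and 1581 in WT and at 523 and 572 in cKO (-1.20 ± 0.33, adjusted p = 0.0967, and 0.31 under TMM). Gm48333, of 266 bases, stood at 182 and 272 against 73.2 and 103 (-1.36 ± 0.39, adjusted p = 0.112, and 0.13 under TMM). Neither was called. Gm49051 stood at 508 and 501 in WT and at 158 and 139 in cKO (-1.76 ± 0.29, adjusted p = 0.0287), and Gm47605 at 377 and 436 against 101 and 73.7 (-2.22 ± 0.34, adjusted p = 0.0259). Gm49511, described because its sequence is printed above, stood at 26.1 and 48.9 against 5.68 and 9.46 (-2.28 ± 0.62, adjusted p = 0.0917, and -0.79 under TMM) and was not called. Differences among the fold changes of these short members were not tested. Longer members of the family carried most of its reads. Gm48119, of 2625 bases on chromosome 12, stood at 13531 and 11018 in WT and at 3305 and 2121 in cKO (-2.18 ± 0.31, adjusted p = 0.023). Gm17132, an unprocessed pseudogene on chromosome 5, stood at 8946 and 6967 against 2325 and 1550.2 (-2.04 ± 0.31, adjusted p = 0.025). Gm21897, a protein-coding model of 1500 bases on chromosome 16, stood at 7640.2 and 4677 against 2003 and 1132 (-1.97 ± 0.40, adjusted p = 0.0446). In all 3 of these longer genes replicate 1 was the higher library in both genotypes.

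**Figure D4:**
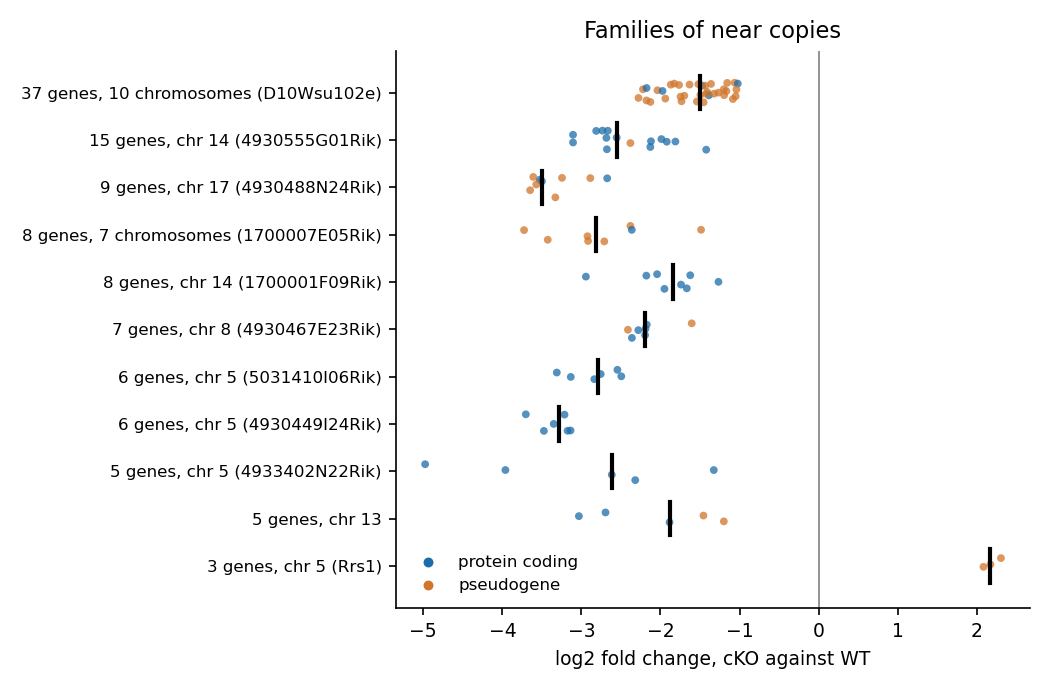
Log2 fold change of cKO against WT for each member of the 10 families of 5 or more genes and of the Rrs1 family, with bars at the medians and the most frequent named relative in brackets. Members at 0 in a genotype are not drawn. The Rrs1 family lies at 2.09 to 2.31 and every other point is below 0, whereas under TMM the median of the 37 genes is 0.02 and 5 of these families hold members of both directions.

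The other large families mostly lay on 1 chromosome each, some of them split between distant stretches of it. A group of 15 genes on chromosome 14, related to 4930555G01Rik, summed to 3702 and 2890.2 normalized counts in WT and to 756 and 704 in cKO, with a median log2 fold change of -2.55 and 12 called lower. A group of 9 genes on chromosome 17 related to 4930488N24Rik summed to 4094 and 5464 against 295 and 619, with a median of -3.50 and all 9 called lower. Of them 6 carry the deposited term protein serine/threonine kinase activity. On chromosome 8, 7 genes related to 4930467E23Rik summed to 11926 and 13314 against 3117 and 2904, with a median of -2.19 and all 7 called. Among these, Gm20946, an unprocessed pseudogene 99.8% identical to 4930467E23Rik, stood at 892 and 1471 in WT and at 149 and 295 in cKO (-2.41 ± 0.46, adjusted p = 0.038). Chromosome 5 held 6 genes related to the Speer4 group of spermatogenesis-associated glutamate-rich proteins and to 5031410I06Rik (1488 and 1750.5 against 145 and 333, median -2.80), and 6 related to 4930449I24Rik (1531 and 2007 against 96.3 and 246, median -3.28), with 5 called lower in each. In all of these families the summed counts of both cKO libraries were below both WT libraries, which follows from the choice of the genes. Over all listed genes 39.8% of the lead transcripts were called lower. Under TMM 0 genes were called in the chromosome 14 group (median -1.08, with 1 gene higher), the chromosome 8 group (-0.70) and the Speer4-related group (-1.32). Under the same scaling 3 were called in the chromosome 17 group (-2.03) and 1 in the 4930449I24Rik group (-1.81). With library totals 6 of the 15 genes on chromosome 14 were called.

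A family spread over 7 chromosomes consisted of 8 single-exon genes related to 1700007E05Rik, and all 8 carry the deposited terms proteolysis and peptidase activity. It summed to 3178 and 3635 in WT and to 496 and 734 in cKO, with a median of -2.81 and 6 called lower (0 called under TMM, with a median of -1.34). Deposited gene ontology terms were given for 94 of the 277 genes. Of these, 10 carried protein serine/threonine kinase activity (10 lower, median -3.55) and 10 carried proteolysis (10 lower, median -2.92). Over all members 267 of 277 were lower. Most of the kinase genes belong to the chromosome 17 group, and the proteolysis genes include all 8 of the family above. The kinase terms included the pair Gm14147 and Gm14151 on chromosome 2, neighbours of 97.8% identity to 4921509C19Rik. Gm14147 stood at 5143 and 6124 in WT and at 82.7 and 216 in cKO (-5.24 ± 0.55, adjusted p = 0.0162), and Gm14151 at 2951 and 3822 against 168 and 137 (-4.47 ± 0.30, adjusted p = 0.0154). Both pair members were named after their values were seen, and both stood lower under TMM too.

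A named relative was found for 180 members, with 93 distinct relatives. For 103 of them the relative was itself listed and lay elsewhere in the genome. The relative was lower or higher in the same direction as the member in 100 of these cases and in the opposite one in 3. Both were selected by the same thresholds, near copies can share reads, and 43 distinct relatives stand behind the 103, so this count is a description. All 3 opposite cases were copies of Gapdh, the glycolytic enzyme gene. The listed Gapdh transcript stood at 2009 and 2624 normalized counts in WT and at 4251 and 6131 in cKO (log2 fold change 1.16 ± 0.29). Its copy Gm6981 on chromosome 9 stood at 769 and 1082 in WT and at 294 and 396 in cKO (-1.42 ± 0.32, adjusted p = 0.055), with 94.5% identity. Gm5069 on chromosome 1 (-1.28) and Gm4804 on chromosome 12 (-2.35, the only one called) were lower too, but under TMM 2 of the 3 copies were higher, with a median of 0.07. These 3 genes were named after their values were seen.

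Other copies were identical to their source. In 12 members the transcript was 100% identical to a named gene elsewhere in the genome over at least 95% of its length. Among them Gm5641, a copy of the RNA-binding protein gene Hnrnpa3, stood at 1345 and 2057 in WT and at 294 and 226 in cKO (-2.71 ± 0.34), while the 1 listed Hnrnpa3 transcript stood at 564 and 341 against 0 and 0. Gm15801 and Gm8783, retrocopies of the phosphatase gene Ptp4a1 on chromosome 19, have identical sequences of 522 bases and identical values in every library, 128 and 219 in WT and 2.30 and 35.8 in cKO. How reads that match both loci were counted is not given in the sources used here, so these are not values of 1 locus. The listed Ptp4a1 transcript stood at 923 and 915 against 443 and 471. Gm5641 and the pair were named after their values were seen.

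Lead transcripts of 5 members were at 0 in both libraries of a genotype, and 4 of the 5 were at 0 in cKO. Gm10297, a single-exon copy of Gkap1 (a G kinase anchoring protein gene) on chromosome 7 (60753363 to 60754013, GRCm38), had 1336 and 329 reads in WT, a normalized count of 1634 and 385, and none in cKO. With 3 counts over the cKO libraries as the floor it was at least 837-fold lower. It is 100% identical to Gkap1 over 97.2% of its length, and the main listed Gkap1 transcript stood at 6838 and 4985 in WT and at 3295 and 1838 in cKO. Reads can move between such copies in the counting, so the absence of reads at Gm10297 is uncertain as a statement on that locus. Gm2541, a copy of the co-chaperone gene Dnajb6, stood at 269 and 24.1 against 0 and 0, at least 121-fold lower, and was not called (adjusted p = 0.0701). Its 2 WT libraries differed widely. Gm28038 overlaps Nup188, a nuclear pore scaffold gene, and stood at 38.2 and 102 against 0 and 0, at least 58.3-fold lower. Gm47893, a member of the dispersed family, stood at 14.8 and 23.7 against 0 and 0, at least 16.0-fold lower.

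The 10 genes higher in cKO were fewer and less abundant. All 10 were higher under each scaling, and 10 were called under TMM where 3 were called with the authors' size factors. Over all listed genes 2563 lead transcripts were called higher under TMM and 795 with the authors' size factors. Gm8113, a protein-coding model on chromosome 14 whose deposited terms include viral envelope, stood at 1437 and 1402 in WT and at 3630.1 and 2571 in cKO (1.13 ± 0.27, adjusted p = 0.0641). Gm7334, a single-exon sequence on chromosome 17 that is 100% identical to the antiproliferative gene Btg3 over its whole length, stood at 147 and 193 against 382 and 403 (1.21 ± 0.31, adjusted p = 0.0831). No Btg3 transcript was listed (0), so whether reads of Btg3 itself are counted there was not tested. Gm29397, 100% identical over 97.9% of its length to Itga6, a laminin-binding integrin subunit gene, was at 0 in both WT libraries and at 19.9 and 22.3 in cKO, at least 11.8-fold higher, and was called (adjusted p = 0.0318). The main listed Itga6 transcript was higher as well, at 271 and 206 in WT and 698 and 764 in cKO (1.61 ± 0.29).

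The 3 Rrs1 copies formed the family that was higher in every member. Gm5067 stood at 44.6 and 114 normalized counts in WT and at 281 and 390 in cKO (2.09 ± 0.53, adjusted p = 0.0794). Gm21168 stood at 49.5 and 50.2 against 239 and 216 (2.17 ± 0.34, adjusted p = 0.0268), and Gm6089 at 17.2 and 14.1 against 71.9 and 82.9 (2.31 ± 0.47, adjusted p = 0.0436). Both cKO libraries lay above both WT libraries in each, which follows from the choice of the genes, and Gm21168 and Gm6089 were called. No transcript of Rrs1 was listed (0). All 3 lie within 1 stretch of chromosome 5 (25935791 to 26264308, GRCm38), where the other members are the Speer4-related genes Gm21663 and Gm7361. These neighbours went the other way, with Gm21663 at 429 and 405 against 43.2 and 99.6 (-2.54) and Gm7361 at 320 and 495 against 50.2 and 94.7 (-2.50), and both stayed lower under TMM. The pair of neighbours was named after its values were seen.

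Of the remaining genes higher in cKO, Gm15374 (2.03 ± 0.51), Gm48035 (1.22 ± 0.40) and Gm3325, a copy of Zfp808 (1.16 ± 0.41), were not called, with adjusted p of 0.0755, 0.158 and 0.202 by edgeR. The symbol Gm13301 went both ways. The gene at 42216908 to 42220148 on chromosome 4, which GENCODE vM21 does not hold, stood at 416 and 467 in WT and at 137 and 119 in cKO (-1.79 ± 0.31, adjusted p = 0.0309). The gene of the same symbol at 42234014 to 42236330, a transcribed unprocessed pseudogene, stood at 28.5 and 98.8 against 287 and 209.8 (1.97 ± 0.63, adjusted p = 0.148). Its family of 4 genes was the only one of mixed direction, so a value given by symbol alone would join these opposite genes.

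The 2 libraries of a genotype were compared next, a difference that the threshold on FPKM does not use, although calls by the authors favour genes whose libraries are close. Over all members the median log2 ratio of replicate 2 to replicate 1 was 0.06 in WT and 0.25 in cKO, against 0.12 and 0.14 over all listed genes, and the median SD within a genotype was 0.33 on the log2 scale. The dispersed family of 37 had medians of -0.48 in WT and -0.58 in cKO. Replicate 2 was below replicate 1 in both genotypes in 27 of its 37 genes, which is the case in 26.4% of all members and 18.3% of all listed genes. The share of all members includes these 27 genes. Over the 240 members outside the family the median ratios were 0.09 in WT and 0.38 in cKO. Among the other families, 5 genes on chromosome 13 had medians of -0.45 and -0.32, with 3 of the 5 below in both genotypes, and the 2 copies of Hmgb2, a chromatin protein gene, had -0.29 and -0.95, with both below. These differences between families were not tested. Across 265 members the ratio in WT and the ratio in cKO correlated with r = 0.38, and across 6181 listed genes with r = 0.20. These genes share the same 4 libraries and many share reads, so the values are descriptions.

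**Figure D5:**
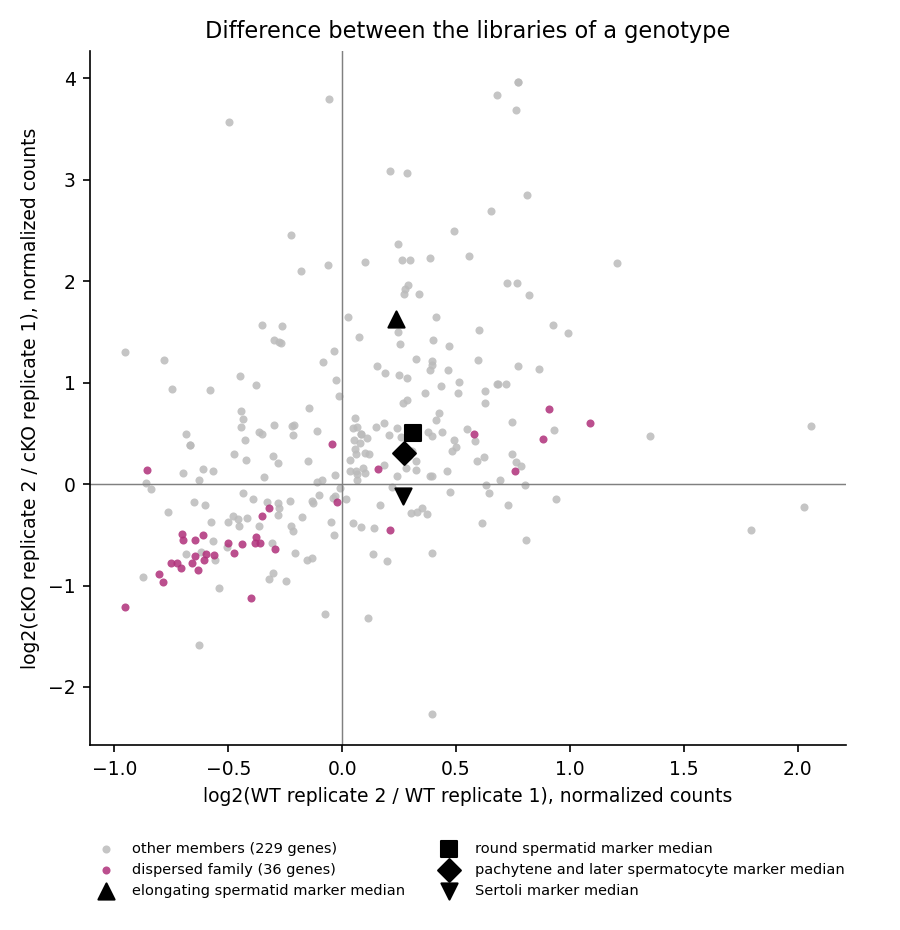
Log2 ratio of normalized counts, replicate 2 over replicate 1, in WT (x axis) and cKO (y axis), for 36 members of the dispersed family and 229 other members with a finite ratio in both. Black symbols are medians of marker lists. Most of the family lies at negative values on both axes, and the elongating spermatid markers lie at 1.63 on the y axis.

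In the cKO some other families differed between the libraries in the opposite direction. The median log2 ratio of cKO replicate 2 to cKO replicate 1 was 1.10 in the chromosome 17 group of 9, 1.30 in the Speer4-related group and 1.19 in the 4930449I24Rik group, whereas it was 0.39, 0.14 and 0.39 between the WT libraries. Elongating spermatid markers had 1.63 in cKO, round spermatid markers 0.51, spermatocyte markers 0.30 and Sertoli markers -0.12. Whether spermatid content accounts for the difference between the cKO libraries in these families was not tested.

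Levels given as FPKM depended on transcript length. The FPKM values divide by an effective length that is shorter than the transcript by 211 and 235 bases in WT libraries and by 214 and 241 in cKO libraries, as recovered from reads, length and FPKM. Of the 12 members with the highest FPKM, 5 had transcripts under 300 bases, and 4 of the 12 were also among the 12 highest by normalized count. Among the 11 members under 300 bases, the median log2 ratio of replicate 2 to replicate 1 was 0.92 by FPKM and 0.43 by normalized count in WT, and 0.68 and 0.14 in cKO. For members of 1000 bases or more it was -0.01 and 0.07 in WT. The FPKM of Gm15517, 1233 in WT and 81.4 in cKO, is thus a value of a transcript close to the length that the calculation subtracts.

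Promoters were at hand in RefSeq (GRCm38.p6) for 94 of the members, as 300 bases from 250 before to 50 after the start. On both strands, the cAMP response element TGACGTCA was in 1 of them (1.06%, against 1.88% of 27025 promoters), TATAAA in 8 (8.51% against 14.2%) and the NF-Y box CCAAT in 32 (34.0% against 37.9%). Below the threshold, the 234 listed autosomal predicted genes under 5 FPKM had a median log2 fold change of -3.03, with 219 lower and 15 higher.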

How the data were processed

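RNA-seq of whole testis was analysed in 4 libraries, 2 WT and 2 Ppp2ca-cKO, grouped by title. The deposited table gives, per the file headers, an expected count (carrying decimals) and an FPKM value per library for each Ensembl transcript called different. It also holds the authors' mean normalized count, a signal across libraries, with their log2 fold changes, p-values and transcript lengths. The submitters' processing notes name mm9, but 98.5% of the gene coordinates were identical to GRCm38 (98.7% of the transcripts have their gene in GENCODE vM21), so GRCm38 is given. How reads were aligned and counted, and whether by strand, is not given in the sources used here, so reads of antisense partners and overlapping genes may be mixed.

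The authors' size factors (0.818, 0.854, 1.24 and 1.25) were solved from the mean normalized counts (misfit at most 4.9e-10), and library totals and effective lengths from reads, length and FPKM. Listed reads made up 43.3% to 44.5% of a WT and 24.4% to 25.5% of a cKO library. Expected counts were rounded and tested with edgeR 4.0.16 in R 4.3.3 (quasi-likelihood, genotype only) on the 10716 transcripts that passed filterByExpr at 10 counts. Since the table is a selection, these size factors and not TMM are the main scaling. The p-values were adjusted (Benjamini-Hochberg) over 64840 transcripts, the number that the authors were inferred to have tested. It was found from their p-values and adjusted p-values, as the number that made most of the implied ranks whole (72.9% of those used). Simulated counts were used only to check that the fit returns known changes. They varied less than the data and few of their transcripts changed, so they give no rate of detection for these data. With 2 residual degrees of freedom the common biological coefficient of variation was 32.5%, a value that only selected transcripts enter. The labels do not say that libraries come from separate litters or days, and p-values measure only the spread between these samples. Floors of 3 counts cover counting error only.

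Near copies were found with megablast in BLAST 2.17.0 against GENCODE vM21 transcripts. The genes and lists were chosen with earlier results of these data known. Named were the 12 lower and up to 12 higher genes with the highest FPKM, the 4 largest changes each way, symbols of both directions, genes at 0 in a genotype and those beside the threshold. The alternatives were TMM, library totals, no filter, DESeq2 1.42.0, a replicate block, each library left out, FPKM thresholds of 3 and 10, sums per gene and FPKM ratios.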

Additional observations from a re-analysis of the deposited data

How the results depend on the processing

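All of the values above come from 2 libraries per genotype and from a table that holds only transcripts already called, so scaling and the estimate of the spread both bear on them. With TMM of the listed transcripts 36 lead transcripts were called lower and 10 higher, and the median log2 fold change was -0.88. Over all listed genes 834 were called lower and 2563 higher. Gm48494 then turned to 0.31, Gm3417 to 0.13 and Gm48333 to 0.13. With library totals 109 were called lower and 7 higher, where 2000 and 2173 lead transcripts of all listed genes were. The median was -1.85. DESeq2 called 264 lower and 10 higher, and 4524 lower and 2559 higher over all listed genes, which is nearly all of them. The log2 ratio of mean FPKM with 0.1 added had a median of -1.83, on the log2(value + 0.1) scale. Leaving out 1 library at a time gave 0 to 224 called lower and 0 to 7 called higher: no lead transcript of any listed gene was called without WT replicate 1 or without WT replicate 2, and the lone library was then assumed to vary like the other genotype. Without cKO replicate 1 or without cKO replicate 2 edgeR called most lead transcripts of all listed genes. The member counts from these fits are therefore no support for the predicted genes. Medians over the members without 1 library ran from -2.53 to -2.26. With the replicate block 163 were called lower and 3 higher, with a median of -2.39, where 2642 and 545 were over all listed genes. The labels do not pair the libraries, although the ratios of replicate 2 to replicate 1 in WT and cKO correlated with r = 0.38 over 265 members. No filter and thresholds of 3 FPKM (339 genes) and 10 FPKM (195 genes) kept counts within 1.5 times. Sums per gene gave a median of -2.38, and no calls were made on them. Short transcripts and near-identical copies also limit the values, since reads that cover no differing base do not tell copies apart.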
